A study of Mus musculus with 6 samples.

Results

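The heat shock proteins are chaperones that bind unfolded proteins, and the DnaJ cochaperones, or J-domain proteins, deliver such proteins to HSP70 and start its ATPase. Their transcripts were examined in skeletal muscle of male mice, 3 with the FLExDUX4 transgene and 3 of the wild type. The members were chosen by gene symbol, as the rows named Hspa, Hspb, Hspd, Hspe, Hsph, Hsp90, Hsf, Dnaja, Dnajb or Dnajc with annotated pseudogenes left out, which gave 80 of 52550 mouse genes. There were 45 J-domain proteins, 27 with heat shock protein names (Hspb11 among them, an intraflagellar transport protein), 5 heat shock factors and 3 proteins that the names also take in (Hspbp1, Hspbap1 and Hsf2bp). The name rule does not take in Cryab, a small heat shock protein under another name, which is given beside the members below.

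FLExDUX4 mice are hemizygous for a human DUX4 transgene at the Rosa26 locus that lies inverted between lox sites. No Cre driver was used, so any DUX4 comes from leaky transcription of the inverted copy, and the transgene's own transcript was not analysed here. The controls were wild-type mice without the transgene, in the study's account littermates. The labels give quadriceps at 13 weeks of age, whereas the methods of the study give triceps at 2 months. RNA was read with QuantSeq, which counts about one read per polyadenylated transcript from its 3′ end, so that counts of different genes can be set side by side without a length term.

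The values are the counts of each gene summed over the mice of a genotype. On mouse genes, 13110125 counts were from the FLExDUX4 total and 18367364 from that of the wild type. Because only these sums were used, there is 1 value per genotype, no spread between mice and no test, and the words higher and lower below refer to the sums. In counts over a group, a gene is called higher or lower where its counting interval, explained next, leaves out 0. Levels are given as CPM, the count relative to library size after TMM scaling, which sets the depth of each genotype from the bulk of the genes. Differences are log2 ratios of FLExDUX4 to wild type with a 95% Clopper-Pearson interval that covers counting error only. One mouse can decide such a ratio. In a bulk sample, fewer cells of a type and less RNA per cell cannot be told apart.

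In muscle, cytosolic HSP70 and HSP90 fold and hold proteins of the sarcomere, small heat shock proteins bind filaments under strain, and HSPB8 with BAG3 and HSP70 marks damaged filament proteins for autophagy. Heat shock factor 1 (HSF1) switches on many cytosolic members when unfolded proteins build up. It does so through heat shock elements, in which GAA and its reverse complement TTC alternate at a distance of 2 bases. The endoplasmic reticulum (ER) and the mitochondria have chaperones of their own.

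Promoter sequences of RefSeq (GRCm38.p6), from 250 bases before to 50 bases after each start, matched 64 of the 80 members. A pair of alternating units, written GAANNTTC or TTCNNGAA (both read the same on either strand), was present for 17 of these 64 members (26.6%) and for 17.0% of all 27025 genes with a promoter. In addition, 3 units in a row, each again 2 bases from the last, were present for 4 members, Dnajb6, Hspd1, Hspe1 and Hsph1 (6.25%), and for 0.662% of all genes. Dnajb6 is named here for its sequence alone. Of 13 members listed as known HSF1 targets, 10 had a promoter in the table (not Hsp90aa1, Hsp90ab1 and Hspa8) and 8 of these held a pair of units. The 2 without a pair were Dnajb1 and Hspa4l, which says only that these letters are not in these windows. A match is a run of letters and not a measured binding site. The windows below are shown because they belong to HSF1 targets or to Hspb8, whose ratios are described below, and let the units be read. The units are in capitals, with flanking bases on either side of the first match. Hspd1 and Hspe1 lie head to head on chromosome 1 and share the same units, shown from the Hspe1 strand (chr1:55088029-55088101, plus strand). The windows of Hspa1a (chr17:34972223-34972290, minus strand) and Hspa1b (chr17:34959305-34959372, minus strand) hold the same bases, so 1 is shown. The others are Hsph1 (chr5:149636266-149636330, minus strand), Hspb1 (chr5:135887772-135887839, plus strand), Hspb8 (chr5:116422825-116422892, minus strand), Dnaja1 (chr4:40722314-40722381, plus strand) and Dnajb4 (chr3:152193822-152193889, minus strand).
Hspe1 and Hspd1: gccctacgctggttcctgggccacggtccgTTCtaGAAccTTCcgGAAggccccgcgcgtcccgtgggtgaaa
Hspa1a and Hspa1b: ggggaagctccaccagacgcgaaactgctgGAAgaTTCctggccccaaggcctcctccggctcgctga
Hsph1: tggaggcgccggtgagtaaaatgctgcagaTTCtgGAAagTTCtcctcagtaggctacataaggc
Hspb1: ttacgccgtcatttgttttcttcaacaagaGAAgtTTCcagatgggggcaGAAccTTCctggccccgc
Hspb8: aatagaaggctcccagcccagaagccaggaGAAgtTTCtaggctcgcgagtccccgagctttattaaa
Dnaja1: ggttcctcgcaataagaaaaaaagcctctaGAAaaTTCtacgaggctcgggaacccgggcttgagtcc
Dnajb4: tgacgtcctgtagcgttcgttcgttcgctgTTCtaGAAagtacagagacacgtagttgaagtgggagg

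The members together took nearly the same part of the muscle transcripts in both genotypes, 4973 CPM with the transgene and 4969 CPM without it. Hsp90ab1, the constitutive cytosolic HSP90, and Hspb6, a small heat shock protein abundant in muscle, together held 39.2% of the member counts with the transgene and 40.4% without it. Of the 80 members, 68 had enough counts to be compared. Their median log2 ratio was 0.0052, against -0.0010 over all 13396 genes compared, and 35 were above and 33 below 0. At least 1.5-fold higher were 2 members (Dnajc24 and Hspa2), where 13.2% of all genes compared were, and at least 1.5-fold lower were 3 (Dnajb1, Hsf4 and Hspa12a), where 13.5% of all genes were. The counting interval lay above 0 for 16 members and below 0 for 15, that is 45.6% of the members in all, beside 20.5% and 20.6% of all genes, or 41.1% together. With the totals scaled to the added spike-in RNAs, every gene shifted by -0.28, the median of all genes to -0.28 and that of the members to -0.27. At least 1.5-fold higher were then 2 members, beside 7.82% of all genes, and lower were 8, beside 23.7% of all genes. Of the 16 members whose interval lay above 0, those that then still did were 5, Dnajb4, Dnajc24, Hspa2, Hspb1 and Hspb7, while for the others the interval held 0, and the interval of 42 members lay below 0 (all genes 7.59% above and 47.1% below). In all, 10 of the 68 members and 25.2% of all genes had a ratio above 0, so the directions below are relative to the bulk of the genes.

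The 8 members with no count in either genotype were Dnajb7, Dnajb8, Dnajb13, Dnajc5b, Dnajc5g, Dnajc22, Hsf3 and Hspb9. Another 4, Dnajb3, Dnajc6, Hsf5 and Hsf2bp, had at most 8 counts in a genotype and were not compared. Of 12 pseudogene rows left out, 4 had counts, at most 7 in a genotype (Hspd1-ps3).

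How far a ratio lay from 0 depended on the number of counts. Of the 11 members with at least 3000 counts over both genotypes, none differed by 1.5-fold, and 0.334% of all genes of that size did. The same was true of 19 members with 1000 to 3000 counts (1.69% of genes) and of 24 members with 300 to 1000 counts (7.54% of genes). Of 10 members with 100 to 300 counts, 2 differed by 1.5-fold (26.6% of genes), and of 4 members with fewer, 3 did (59.8% of genes). Genes of like count are those within 0.5 on the log2 scale of the summed count. For members whose values are described singly below and whose interval leaves out 0, a further share is therefore given too. This is the share of genes of like count whose ratio lay at least as far from 0. It ran from 0.885% (Hspb1) to 47.1% (Dnajc21). By that share, Hspb1, Dnajb1, Dnajb4 and Hspb8 stood farthest out of the 68 members. The folds of Dnajc24 and Hsf4 were larger than that of Dnajb1 but rested on few counts.

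**Figure D1:**
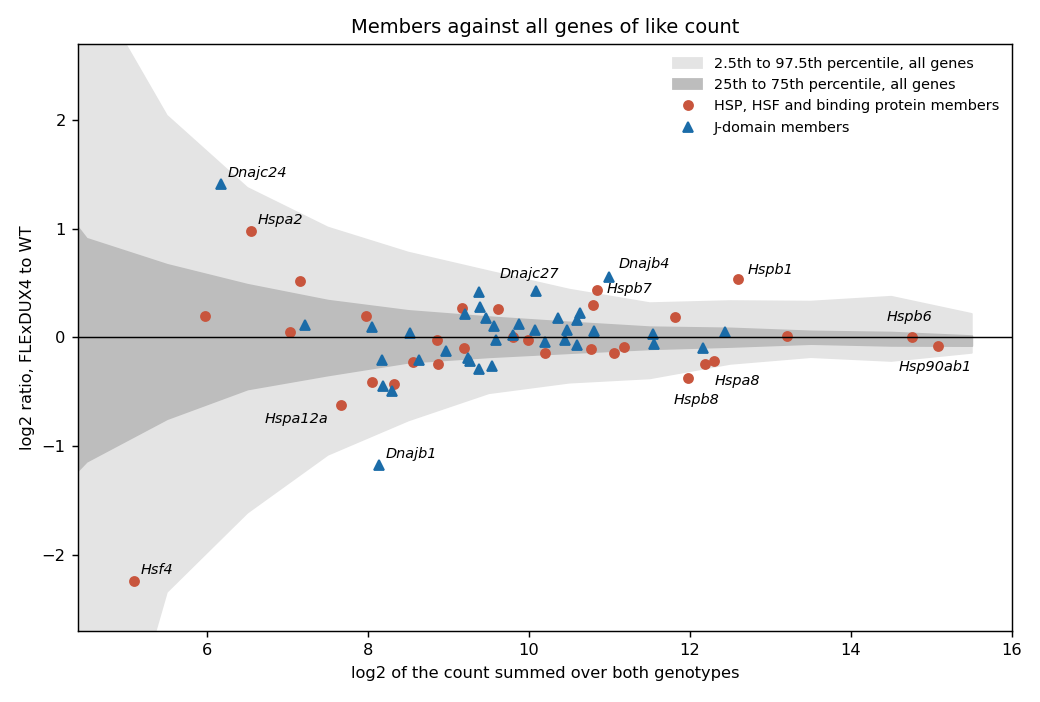
Log2 ratio of FLExDUX4 to wild-type (y axis) of the 68 members compared, against the log2 of the count summed over both genotypes (x axis). Points are single genes, and the darker band runs between the quartiles and the lighter one holds the middle 95% of all genes, both computed in bins of 1 on the x axis and joined between bin centres (the y axis ends inside the lighter band at the left). Hspb1, Hspb7, Hspb8, Dnajb1 and Dnajb4 lie outside the lighter band as drawn, and Dnajc24, Hspa2 and Hsf4 inside it.

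Among the 7 Hspb genes compared, 3 were higher (Hspb1, Hspb7 and Hspb11, the last of which is no small heat shock protein), 1 was lower (Hspb8) and the interval of the other 3 held 0. The interval left out 0 for 57.1% of them, beside 41.1% of all genes. Hspb1, which encodes HSP27, a chaperone of actin filaments, had 3117 counts in the FLExDUX4 total and 3079 in that of the wild type. These are 240 and 166 CPM, a log2 ratio of 0.53 (interval 0.46 to 0.61), and 0.885% of the 339 genes of like count lay as far from 0. The raw counts were near equal although the FLExDUX4 total is the shallower one. The gene lies on chromosome 5 of GRCm38, 135887919 to 135889563. Hspb8, the partner of BAG3, had 1412 counts in the FLExDUX4 total and 2622 in that of the wild type, or 109 and 141 CPM. This gave a ratio of -0.38 (interval -0.47 to -0.28), and 2.64% of the 492 genes of like count lay as far from 0. Hspb8 lies on the same chromosome (chromosome 5 of GRCm38, 116408491 to 116422864).

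The contrast between these genes can be read within each genotype, with no scaling between them. Of the counts on Hspb1 and Hspb8 together, Hspb1 had 68.8% (exact binomial interval 67.5% to 70.2%) with the transgene and 54.0% (52.7% to 55.3%) without it. The pair was chosen after its values were seen. Hspb7, a small heat shock protein of heart and skeletal muscle, had 896 against 945 counts, a ratio of 0.44 (interval 0.31 to 0.57), and 4.74% of the 1075 genes of like count lay as far from 0. Hspb11 had 71 against 71 counts and a ratio of 0.52 (interval 0.021 to 1.01), for which that share was 37.4%.

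Hspb6 had the most counts of the Hspb genes, 11434 counts in the FLExDUX4 total and 16304 in that of the wild type. Its levels were 881 and 878 CPM and its ratio 0.0045 (interval -0.030 to 0.039), an interval that holds 0 and is narrower than that of any member but Hsp90ab1. Hspb2, a partner of HSPB3 in muscle, had a ratio of 0.0060 (interval -0.19 to 0.20). It overlaps Cryab on the other strand, and the sources used here do not say whether strand was used in counting. Hspb3 had 141 against 237 counts and a ratio of -0.23 (interval -0.54 to 0.074). Cryab, the neighbour that encodes αB-crystallin, had 1030 and 872 CPM, close to Hspb6 in the wild type and above it in FLExDUX4 mice, with 13359 against 16180 counts and a ratio of 0.24 (interval 0.21 to 0.27). Scaled to the spike-ins the ratio of Cryab was -0.036.

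**Figure D2:**
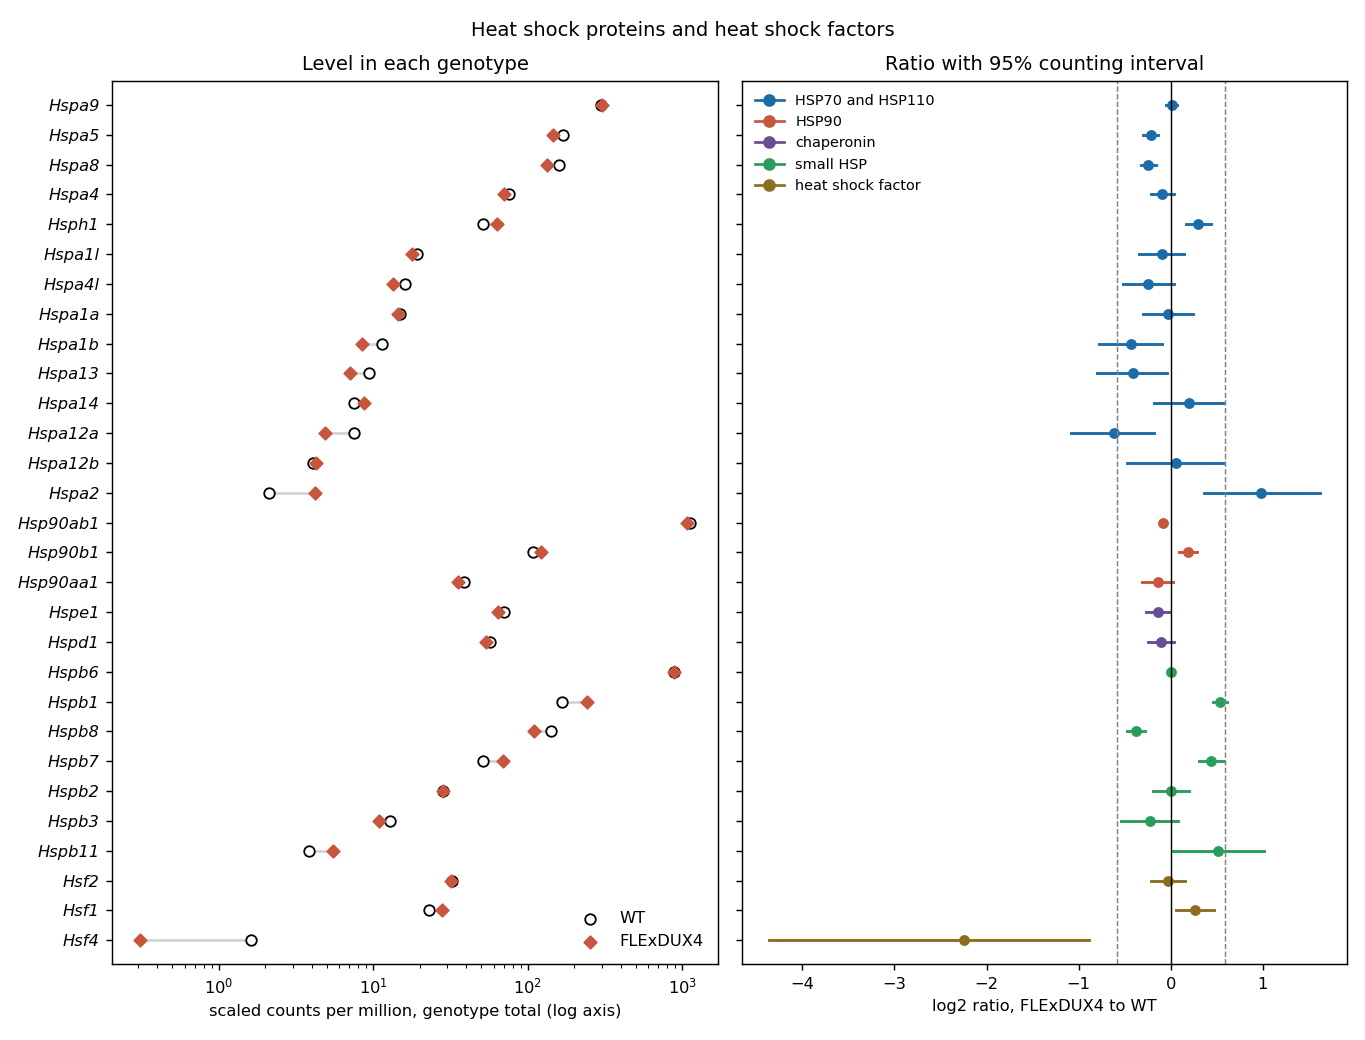
Levels and ratios of the 26 members with heat shock protein names (Hspb11 included) and 3 heat shock factors compared. Left, CPM of each genotype's total on a log axis, open circles for wild-type and diamonds for FLExDUX4; right, the log2 ratio with its 95% counting interval and dashed lines at 1.5-fold. Hsp90ab1 (1067 and 1128 CPM) and Hspb6 (881 and 878 CPM) had the highest levels, Hspb1 and Hspb7 lay to the right of 0 and Hspb8 to the left.

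Of the 14 HSP70 and HSP110 genes, 2 were higher (Hspa2 and Hsph1), 5 were lower (Hspa1b, Hspa5, Hspa8, Hspa12a and Hspa13) and the interval of 7 held 0, with a median of -0.093. The share whose interval left out 0 was 50%, beside 41.1% of all genes. Hspa8, the constitutive cytosolic HSP70, had 1736 counts in the FLExDUX4 total and 2937 in that of the wild type, a ratio of -0.24 (interval -0.33 to -0.16). Hspa5, which encodes BiP, the HSP70 of the ER, had 1894 counts in the FLExDUX4 total and 3152 in that of the wild type, a ratio of -0.22 (interval -0.30 to -0.14). Both were lower by a like amount, and 11.3% of the 433 genes of like count for Hspa8 and 12.1% of the 420 genes of like count for Hspa5 lay as far from 0. Hspa9, the mitochondrial HSP70, was the most abundant of the group, with 301 and 299 CPM and a ratio of 0.011 (interval -0.048 to 0.070).

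The stress-inducible HSP70 genes, Hspa1a and Hspa1b, had 14.5 and 8.40 CPM with the transgene. Without it they had 14.8 and 11.4 CPM, and the median level of all genes compared was 7.91 CPM. Hspa1a had 188 against 274 counts, a ratio of -0.026 (interval -0.30 to 0.25), and Hspa1b 109 against 211 counts, a ratio of -0.43 (interval -0.78 to -0.096). For Hspa1b, 26.9% of the 2119 genes of like count lay as far from 0. Their transcripts share 85.5% of their bases over the whole length and 52.8% over the last 300 bases. Whether reads of one were counted for the other was not tested. Summed, they had 297 against 485 counts, a ratio of -0.19 (interval -0.40 to 0.020). Hspa1a held 63.3% of the sum (57.5% to 68.8%) with the transgene and 56.5% (52.0% to 61.0%) without it, and these intervals overlap. Hspa1l, a neighbour known for its expression in testis, had 232 against 355 counts and a ratio of -0.096 (interval -0.34 to 0.15).

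Hsph1, which encodes HSP110, a nucleotide exchange factor of HSP70, was higher, with 823 counts in the FLExDUX4 total and 957 in that of the wild type and a ratio of 0.30 (interval 0.16 to 0.43), and 14.7% of the 1123 genes of like count lay as far from 0. Scaled to the spike-ins the ratio was 0.023 and its interval held 0. The related Hspa4 and Hspa4l had ratios of -0.091 (interval -0.21 to 0.030) and -0.24 (interval -0.52 to 0.030). Hspa2 had 54 against 39 counts and a ratio of 0.98 (interval 0.36 to 1.62), but 17.4% of the 1738 genes of like count lay as far from 0. Hspa12a, a distant HSP70 relative, had 63 against 139 counts and a ratio of -0.62 (interval -1.08 to -0.19), for which that share was 20.8% of the 2041 genes of like count. Hspa12b and Hspa14 had ratios of 0.053 (interval -0.48 to 0.57) and 0.20 (interval -0.18 to 0.56). Hspa13, an HSP70 relative of the ER, had 91 against 174 counts and a ratio of -0.41 (interval -0.80 to -0.045), and 33.2% of the 2080 genes of like count lay as far from 0.

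The HSP90 genes and the chaperonin differed little. Hsp90ab1, on chromosome 17 of GRCm38, 45567775 to 45573271, showed 13841 counts in the FLExDUX4 total and 20926 in that of the wild type, the most of any member, and a ratio of -0.080 (interval -0.11 to -0.049). Its stress-inducible counterpart Hsp90aa1 had 456 against 721 counts and a ratio of -0.14 (interval -0.32 to 0.027). Hsp90aa1 made up 3.19% (2.91% to 3.49%) of the cytosolic HSP90 counts with the transgene and 3.33% (3.10% to 3.58%) without it. Hsp90b1, which encodes GRP94 of the ER, was higher, with 1588 against 1994 counts and a ratio of 0.19 (interval 0.092 to 0.28). Scaled to the spike-ins it was -0.088. The share of genes of like count that lay as far from 0 was 44.4% for Hsp90ab1, 22.2% for Hsp90b1 and 44.7% for Hspe1, described next. Hspd1 (HSP60) and Hspe1 (HSP10), which form the mitochondrial folding chamber and share the promoter window shown above, had ratios of -0.10 (interval -0.24 to 0.037) and -0.14 (interval -0.27 to -0.014). Hspd1 held 45.5% (43.0% to 48.0%) of their joint counts with the transgene and 44.8% (42.8% to 46.9%) without it.

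Of the heat shock factors, Hsf1 had 358 counts in the FLExDUX4 total and 427 in that of the wild type and a ratio of 0.26 (interval 0.055 to 0.47). Scaled to the spike-ins it was -0.014, and 32.5% of the 1799 genes of like count lay as far from 0 as the first value. Hsf2 had 413 against 602 counts and a ratio of -0.027 (interval -0.21 to 0.16). Hsf4, best known from the lens, had only 4 against 30 counts and a ratio of -2.24 (interval -4.36 to -0.89), and 7.77% of the 1455 genes of like count lay as far from 0. Hspbp1, which releases nucleotide from HSP70, had 264 against 313 counts and a ratio of 0.27 (interval 0.029 to 0.51). Scaled to the spike-ins it was -0.0048, and 36.1% of the 1968 genes of like count lay as far from 0 as the first value. Hspbap1 had 28 against 35 counts and a ratio of 0.20 (interval -0.58 to 0.95).

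Among the 37 J-domain genes compared, 8 were higher, 6 were lower and the interval of 23 held 0, with a median of 0.043. The interval thus left out 0 for 37.8% of them, beside 41.1% of all genes. Dnajb1 (HSP40), a cytosolic partner of HSP70 and a gene that HSF1 induces, had 66 counts in the FLExDUX4 total and 214 in that of the wild type. These are 5.09 and 11.5 CPM, a ratio of -1.17 (interval -1.60 to -0.78) or 2.25-fold lower, and 0.950% of the 2106 genes of like count lay as far from 0. Dnajb1 lies on chromosome 8 (83608193 to 83612653). Dnajb4, a relative of DNAJB1 expressed in muscle, had 1035 counts in the FLExDUX4 total and 1009 in that of the wild type, or 79.8 and 54.4 CPM. The ratio came to 0.55 (interval 0.43 to 0.68), and 1.81% of the 994 genes of like count lay as far from 0. Dnajb4 is on chromosome 3 (152178511 to 152210302).

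Dnajb1 thus had 5.99% (4.67% to 7.56%) of the counts on Dnajb1 and Dnajb4 with the transgene and 17.5% (15.4% to 19.7%) without it, a comparison that does not depend on the scaling. This pair, too, was chosen after its values were seen. The study lists Dnajb1, Dnajb4 and Hspb8 among genes of the NRF2 oxidative stress response picked from these same mice, so their directions here are not independent of that list.

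Dnajb9 and Dnajb11, J-domain proteins of the ER that work with BiP, were both higher, with 321 against 344 counts and 307 against 362 counts. Their ratios were 0.42 (interval 0.19 to 0.64) and 0.28 (interval 0.055 to 0.50), and 14.0% and 31.8% of the genes of like count lay as far from 0. With spike-in scaling they were 0.14 and 0.0030, and both intervals held 0. Dnajc27, a small GTPase with a J domain, had 524 against 558 counts and a ratio of 0.43 (interval 0.25 to 0.60), and 7.07% of the 1528 genes of like count lay as far from 0. Dnajc24, which takes part in making diphthamide on elongation factor 2, had 47 against 25 counts and a ratio of 1.41 (interval 0.70 to 2.19), for which that share was 8.51% of the 1609 genes of like count. Its annotated span overlaps Dcdc5 on the other strand. The lowest ratios after Dnajb1 were those of Dnajc12, with 104 against 210 counts and a ratio of -0.49 (interval -0.85 to -0.15), and Dnajc14, with 99 against 193 counts and a ratio of -0.44 (interval -0.81 to -0.090). Of the genes of like count, 20.9% and 27.7% lay as far from 0. The span of Dnajc14 overlaps Sarnp on the same strand.

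Dnaja2, a general partner of HSP70 in the cytosol, had the highest level of the J-domain genes, with 178 and 173 CPM and a ratio of 0.046 (interval -0.031 to 0.12). Dnajc21, a nuclear protein of ribosome assembly, had 139 and 149 CPM and a ratio of -0.098 (interval -0.18 to -0.012), and 47.1% of the 446 genes of like count lay as far from 0. The less abundant Dnaja1, which HSF1 also induces, had 232 against 385 counts and a ratio of -0.21 (interval -0.46 to 0.024).

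**Figure D3:**
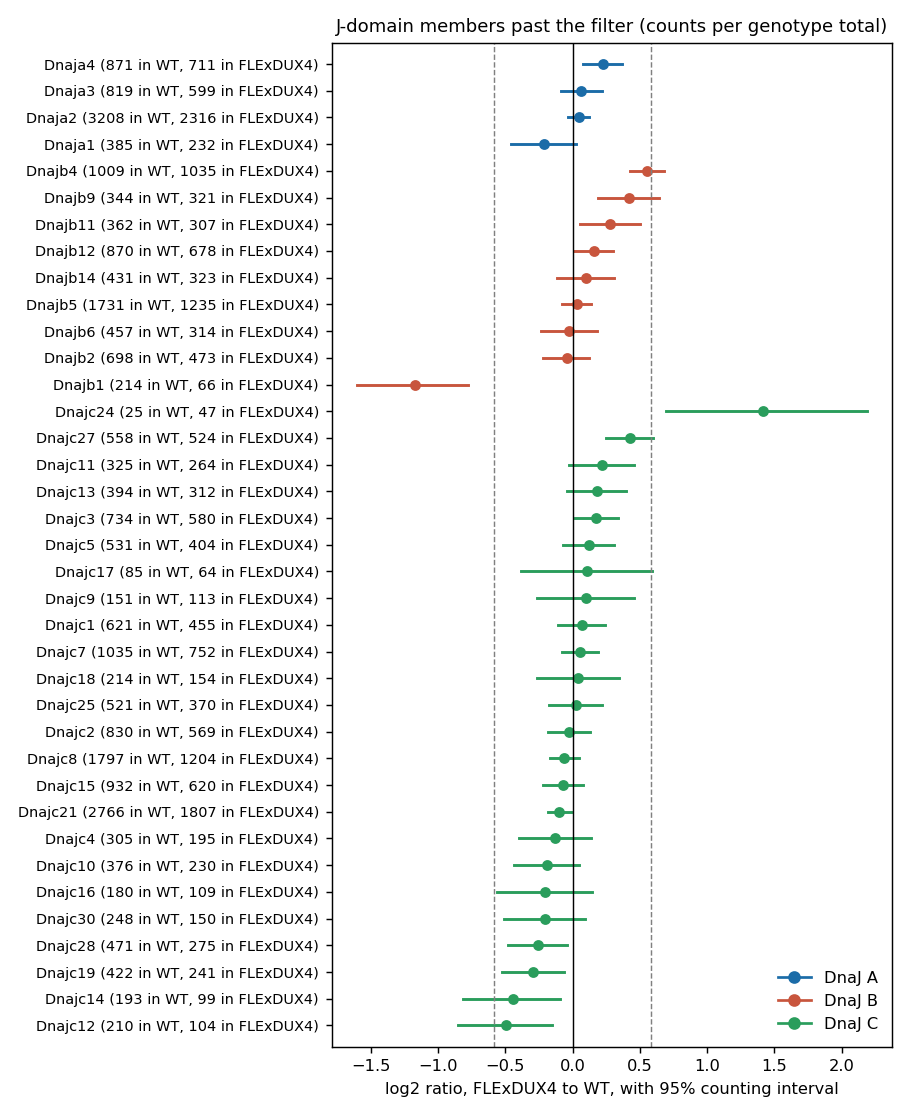
Log2 ratio of FLExDUX4 to wild-type (x axis) with its 95% counting interval for the 37 J-domain members compared, by type A, B and C, with the counts of each genotype beside the symbol and dashed lines at 1.5-fold. Dnajb1 lies farthest to the left and Dnajc24, with 47 against 25 counts, farthest to the right, while most intervals hold 0.

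Grouped by regulation and site, the 13 members listed as HSF1 targets had a median of -0.14 (all genes -0.0010), with 3 higher (Dnajb4, Hspb1 and Hsph1), 5 lower (Dnajb1, Hspa1b, Hspa8, Hspe1 and Hsp90ab1) and 5 whose interval held 0. The interval left out 0 for 61.5% of the list and for 41.1% of all genes, at a median level of 55.1 CPM in the list and 7.91 CPM over all genes, and it is narrower at higher counts. By number of genes, 10 of the 13 had a ratio below 0, beside 6711 of all 13396 genes. By amount, the list came to 1795 CPM with the transgene and 1798 CPM without it, of which Hsp90ab1 made up most. The 8 members of the ER lumen had a median of 0.12, with 4 higher (Dnajb9, Dnajb11, Dnajc3 and Hsp90b1) and 2 lower (Hspa5 and Hspa13). That is 75% with an interval that leaves out 0, beside 41.1% of all genes. The median level of this list, too, was above that of all genes, at 28.0 CPM against 7.91 CPM. With spike-in scaling 2 of the 8 were above 0, and the intervals of the 4 called higher all held 0. Dnajc3, the ER protein p58IPK, had a ratio of 0.18 (interval 0.017 to 0.34), and -0.099 when scaled to the spike-ins. A share of 41.6% of genes of like count lay as far from 0 as the first value. For Dnajc1 and Dnajc10 the interval held 0. The summed level of these 8 was 421 and 418 CPM.

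The 7 members listed as mitochondrial, a list that need not be complete, had a median of -0.071. The interval left out 0 for 28.6% of them, beside 41.1% of all genes. Of these, Dnajc19, a part of the inner membrane import machinery, had 241 against 422 counts and a ratio of -0.29 (interval -0.53 to -0.060), with 29.6% of the genes of like count as far from 0, and Hspe1 was also lower. For Hspa9, Hspd1, Dnaja3, Dnajc11 and Dnajc15 the interval held 0.

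Cochaperones and chaperones outside the name rule were read beside the members. Of 23 cochaperones of HSP70 and HSP90, 4 were higher, 5 were lower and the interval of 14 held 0, with a median of 0.010. The interval left out 0 for 39.1% of these, near the 41.1% of all genes. Bag3, the partner of HSPB8, had 783 against 1059 counts and a ratio of 0.081 (interval -0.054 to 0.22). Stub1, the ubiquitin ligase CHIP of the same complex, had a ratio of 0.082 (interval -0.080 to 0.24). Fkbp5, an HSP90 cochaperone of steroid receptors that glucocorticoids induce, had 625 against 466 counts, a ratio of 0.94 (interval 0.76 to 1.12), and Bag4 136 against 124 counts, a ratio of 0.65 (interval 0.29 to 1.01). The study lists Fkbp5 in the same NRF2 response as Dnajb1, so its direction is not independent of that list. Sgta, which guides membrane proteins after synthesis, was lower, with 574 against 1080 counts and a ratio of -0.39 (interval -0.54 to -0.25), as was Bag6, its partner, with a ratio of -0.26 (interval -0.39 to -0.13). Unc45b, the myosin chaperone of muscle, had 1757 against 2306 counts and a ratio of 0.12 (interval 0.034 to 0.21). Scaled to the spike-ins the ratio of Unc45b was -0.15.

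Of 28 other chaperones compared, 6 were higher, 6 were lower and the interval of 16 held 0, with a median of -0.0055. The interval left out 0 for 42.9% of these, again near the share of all genes. The 8 subunits of the cytosolic chaperonin TRiC ran from -0.18 (Cct7) to 0.22 (Cct2). Of 6 prefoldin subunits, Pfdn5 and Pfdn6 were lower, with ratios of -0.31 (interval -0.43 to -0.18) and -0.38 (interval -0.60 to -0.17), and for Pfdn1, Pfdn2, Pfdn4 and Vbp1 the interval held 0. Clpx, a mitochondrial unfoldase, had a ratio of 0.43 (interval 0.24 to 0.61).

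**Figure D4:**
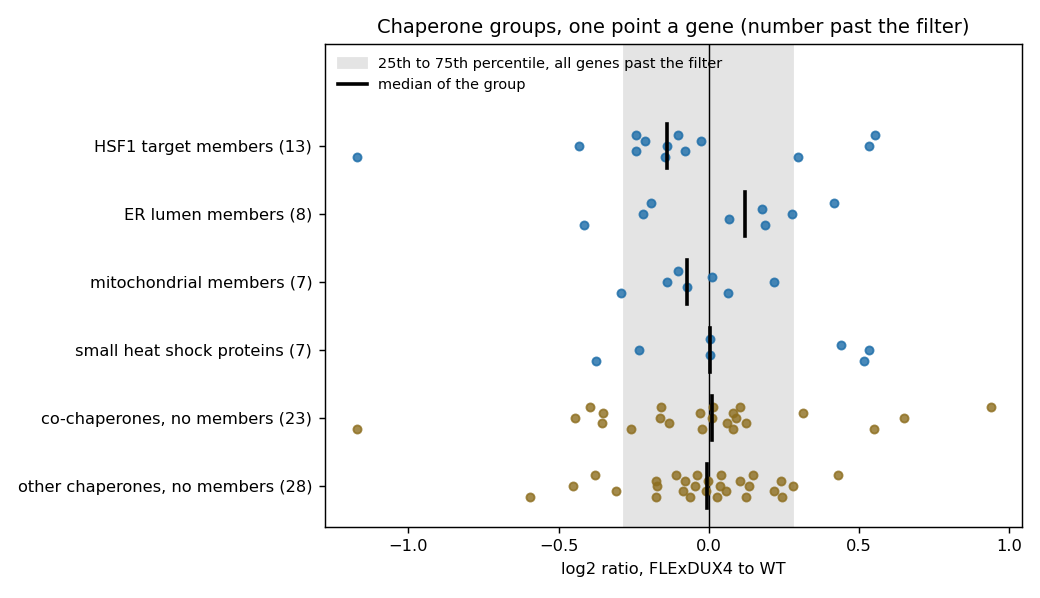
Log2 ratio of FLExDUX4 to wild-type (x axis) for genes of 4 groups of members (HSF1 targets, ER lumen, mitochondria and the small heat shock protein list, Hspb11 included) and of the 2 groups of chaperones that are no members, 1 point a gene; black bars are group medians and the shaded band runs between the quartiles of all genes compared. The 6 medians run from -0.14 for HSF1 target members to 0.12 for ER lumen members. The band is the spread of single genes and not of medians.

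As a check that the tissue is skeletal muscle, which cannot tell quadriceps from triceps, 8 skeletal muscle genes made up 105785 CPM with the transgene and 106146 CPM without it. Of other cell types, all 5 blood markers were higher in FLExDUX4 mice (1279 against 1020 CPM in sum) and 4 of 5 adipocyte markers were (373 against 294 CPM), while for Lep the interval held 0. Over all genes the interval lay above 0 for 20.5%, at a median level of 7.91 CPM. The median level was 149 CPM for the blood and 18.3 CPM for the adipocyte markers. With spike-in scaling 4 blood and 3 adipocyte markers had a ratio above 0. The study lists Adipoq in pathways picked from these same mice. Among 3 fibroblast markers only Col1a1 had an interval without 0, with a ratio of 0.53 (interval 0.47 to 0.60), and the sums were 1048 and 939 CPM. Of 7 slow fiber markers, 4 were lower and for 3 the interval held 0 (715 and 757 CPM). The interval left out 0 for 57.1% of these, at a median level of 115 CPM, beside 41.1% of all genes. The 3 endothelial markers summed to 147 and 168 CPM, and Kdr alone was lower (ratio -0.56, interval -0.70 to -0.42). For the 3 leukocyte markers compared (Ptprc, Cd68 and Adgre1) and the 3 of nerve and Schwann cells each interval held 0, the latter at 56.6 and 58.7 CPM in sum, and Cd3e was at 0 in the wild-type total. The part of other cell types in the members' ratios was not tested.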

How the data were processed

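Per the labels and the study's methods, QuantSeq 3′ libraries of 3 FLExDUX4 and 3 wild-type mice were trimmed with cutadapt 1.16 and aligned with STAR 2.5.3a to GRCm38 with ERCC and SIRV spike-ins. The submitters' processing notes also name FastQC 0.11.7, featureCounts 1.6.2, Subread and DESeq2. Whether counting used strand is not given in the sources used here. The deposited values used are raw counts summed by the authors over each genotype. A further 6 columns of single samples match no label and were not used, nor were 6 columns of the authors' own comparison (mean, fold change, its error, statistic, p and adjusted p).

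Totals were filtered with filterByExpr and scaled with TMM in edgeR 4.0.16 (R 4.3.3), with a minimum count of 10 and a pseudocount of 0.5 on log2 ratios. The 95% interval of a ratio is the Clopper-Pearson interval of the FLExDUX4 share of a gene's 2 counts, converted to a ratio. The edgeR test planned for values of single mice was not run. Totals of at most 3 counts were treated as at the floor. The interval was tested on simulated counts that hold counting error and no spread between mice, so that test says nothing about such a spread. Promoters, annotation and transcript ends were read in Python 3.11.15 with Biopython 1.88 from RefSeq (GRCm38.p6) and GENCODE (GRCm38). Of the 80 members, 43 overlap another annotated gene. Coordinates are given only where the annotated start equals the deposited one.

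Members and lists were chosen with earlier results of these data known. Named genes are all members that are not J-domain proteins, the J-domain members among the 10 with the most counts, the 8 highest or the 8 lowest ratios whose interval leaves out 0, those in the lists and those the study lists in a pathway. Members at no more than 3 counts in a total are given by name only. The lists cover families, HSF1 targets, ER, mitochondria, cochaperones, other chaperones, immediate early, cold-inducible and clock genes, and cell type markers, of which 1 leukocyte marker is not reported here. Of the cochaperones listed, 2 are members by name and were counted as members.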

Additional observations from a re-analysis of the deposited data

How the results depend on the processing

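Scaling by RLE, upper quartile or gene totals, a pseudocount of 2 and a minimum of 50 counts left 2 members at least 1.5-fold higher, 2 or 3 lower, and the median ratio within the counting error. With spike-in totals the lower members were 8 and the median -0.27. With no filter beyond 1 count, 3 of 72 members were higher and 5 lower (all genes 21.0% and 24.8%). At a fold limit of 5 to 4 the numbers were 8 higher and 8 lower of 68 (all genes 22.6% and 22.8%), and at a fold of 2 they were 1 higher and 2 lower (5.99% and 7.43%). Among the 49 named members, spike-in scaling turned the sign of 4 whose interval was above 0, Dnajc3 (-0.099), Hsf1 (-0.014), Hsp90b1 (-0.088) and Hspbp1 (-0.0048), and outside them it did so for Dnaja4 (-0.052) and Dnajb12 (-0.12), which are named for this after their values were seen, since it moves every gene by -0.28. Of the 49 it moved 30 others beyond their counting error and left 15, while RLE, upper quartile, gene totals and the larger pseudocount left all 49. The cause of that shift was not tested. No paired analysis was possible because values of single mice were not used, and for the same reason no mouse could be left out and neither edgeR's nor DESeq2's test was run. Members below 100 counts were limited by depth.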

Other observations

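Immediate early, cold-inducible and clock genes were read from the same totals. Of 7 immediate early genes compared, 4 were lower in FLExDUX4 mice and 1 was higher, so that the interval left out 0 for 71.4%, beside 41.1% of all genes. Fos had 59 against 364 counts (ratio -2.10, interval -2.53 to -1.71), Junb 83 against 202 counts (ratio -0.76, interval -1.15 to -0.39) and Egr1 78 against 170 counts (ratio -0.60, interval -1.01 to -0.21). Jun, the most abundant, had 1228 against 2017 counts and a ratio of -0.20 (interval -0.30 to -0.096), and Ier2 was higher, with 72 against 50 counts and a ratio of 1.04 (interval 0.50 to 1.59). The cold-inducible RNA-binding proteins Cirbp and Rbm3 had ratios of -0.20 (interval -0.51 to 0.095) and -0.55 (interval -1.53 to 0.33) from 150 against 247 counts and 16 against 34 counts. Of 10 clock genes compared, 5 were higher and 3 were lower, or 80% beside the same 41.1%. Their median level was 30.2 CPM against 7.91 CPM over all genes, and the interval is narrower at higher counts. The study lists Arntl, Clock, Cry2 and Per2 in a circadian pathway, and Fos in the NRF2 response, picked from these same mice. The clock share and the direction of Fos are thus not independent of those lists. Whether the immediate early, cold-inducible and clock genes vary with the members from mouse to mouse was not tested.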
